A study of Mus musculus with 16 samples.

Results

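Fibrillar collagens are secreted as precursors, and the genes described here encode the proteinases that trim those precursors and the secreted proteins that speed the trimming. All probes whose gene name in the scanner files is Bmp1, Tll1, Tll2, Adamts2, Adamts3, Adamts14, Pcolce or Pcolce2 were taken, which gave 14 of 55681 non-control probes, for 8 of 35715 gene names. They were measured on 16 one-colour microarrays of RNA from primary mouse lung fibroblasts, cells grown out of lung tissue and passaged at least 3 times before use. They had received, 48 hours before collection, a small interfering RNA (siRNA) that targets Lox (group siLox), Loxl1 (group siLoxL1) or Loxl2 (group siLoxL2), or a scrambled control RNA (group scr), and each group holds 4 samples. The 3 targets are lysyl oxidases, secreted enzymes whose activity lets collagen and elastin molecules become cross-linked. No strain, age or further treatment is part of the group labels. The title of the series speaks of exogenous expression, whereas the sample labels and protocols describe siRNA transfection. Nothing in the labels says whether the 4 samples of a group came from separate animals or cultures, so p-values measure the spread between these samples, which may be technical.

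A fibrillar procollagen carries a propeptide at each end, and proteinases can remove both. The C-propeptide is cut by Bmp1 and its relative Tll1. With Tll2 they belong to the tolloid metalloproteinases, a family that also trims lysyl oxidase precursors, small proteoglycans and antagonists of growth factors. The N-propeptide is cut by Adamts2, Adamts3 and Adamts14. Pcolce and Pcolce2 are not proteases themselves: they bind procollagen and raise the rate of its C-terminal cleavage by the tolloids.

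The 4 siLox arrays and the 4 scr arrays lay on slide 1, and the 4 siLoxL1 and 4 siLoxL2 arrays on slide 2, which was scanned in another session. Thus siLox against scr and siLoxL1 against siLoxL2 lie within a slide, whereas siLoxL1 or siLoxL2 and slide cannot be told apart when either is set against scr. Within each slide the groups also lay in different rows, scr and siLoxL1 in row 1 and siLox and siLoxL2 in row 2, so that group and row cannot be told apart either. The share of spots well above background was 49.2% to 52.3% on slide 1 and 60.4% to 63.1% on slide 2, and precision is limited by having 4 arrays a group. A level is the log2 processed signal minus the log2 of the 75th percentile over non-control probes on that array. The Lox probe read 0.39, 0.89, 1.25 and 2.04 in siLox and 4.16, 4.08, 4.15 and 3.88 in scr, a fall of 2.92 ± 0.31 on the log2 scale (SE, limma adjusted p = 0.00387). Loxl1 averaged 4.60 ± 0.08 in siLoxL1 and 5.75 ± 0.07 in siLoxL2 (SD, n = 4 each), with a log2 difference of -1.15 (limma adjusted p = 0.000223). Loxl2 averaged 5.38 ± 0.14 in siLoxL2 and 6.45 ± 0.29 in scr, but 5.69 ± 0.10 in siLoxL1 and 5.73 ± 0.22 in siLox (SD, n = 4 each).

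Of the 14 probes, 11 exceeded background clearly (the scanner's flag) in every array of some group and were tested. They represent 6 of the 8 genes. Tll2 and Adamts3 were not among them: the Tll2 probe and 1 Adamts3 probe were well above background on 0 of 16 arrays, and the other Adamts3 probe on 1. The sequences of 8 tested probes are shown, picked among probes of the same gene that read differently or that carry large differences. Those of Tll1, which also do, are not shown. Positions are in mouse build mm9, as the scanner files give them along with a transcript but no exon. All sequences run 5′ to 3′ on the gene's strand. Capitals mark AATAAA, the letters of the usual polyadenylation signal, or a terminal TAA that closes an open reading frame. For Bmp1, Pcolce and Adamts14, some probes are shown as a stretch of 30 bases.
Pcolce2 A_51_P245789 (chr9:95595436-95595495, plus strand): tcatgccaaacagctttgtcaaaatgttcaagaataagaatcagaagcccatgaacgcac
Pcolce A_55_P2020577 (chr5:138046339-138046368, minus strand): agagctcatccaAATAAAtgtttcttgact
Bmp1 A_55_P2006703 (chr14:70874372-70874401, minus strand): ggcaccccagccAATAAAcagaaagtgtta
Bmp1 A_55_P2006698 (chr14:70886445-70886474, minus strand): tgtgacatttcctgttgtgaagtaaaagag
Bmp1 A_55_P2006708 (chr14:70890355-70890414, minus strand): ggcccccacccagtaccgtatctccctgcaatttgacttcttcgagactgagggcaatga
Adamts2 A_52_P184042 (chr11:50590188-50590247, plus strand): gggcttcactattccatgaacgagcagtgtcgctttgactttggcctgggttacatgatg
Adamts2 A_51_P227222 (chr11:50617472-50617531, plus strand): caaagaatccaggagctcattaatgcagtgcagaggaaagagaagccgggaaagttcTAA
Adamts14 A_55_P1978316 (chr10:60659890-60659919, minus strand): tcaagtcatgtgtggaccggcctggagatg

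In siLox against scr, the enhancer gene Pcolce2 was higher, and Pcolce, 1 probe each of Bmp1 and Adamts2, and the brighter Tll1 probe were lower. That is 5 of 11 member probes past a limma adjusted p of 0.05, beside 21.1% of all 32430 tested probes. By direction, 1 of 11 was higher beside 9.68% of all probes, and 4 of 11 were lower beside 11.5%. With no filter on dim probes Pcolce2 passed (limma adjusted p = 0.0439) and the other 4 did not (0.0780 to 0.111). The median log2 difference was -0.27 over the 11 member probes and -0.05 over all probes. In siLoxL1 against siLoxL2, 1 of 11 passed, a lower Adamts2 probe, beside 6.73% of all probes (4.41% higher, 2.32% lower). With slides differing, 7 of 11 passed in siLoxL1 against scr (1 higher, 6 lower) beside 59.2% of all probes (38.5% higher, 20.7% lower), and 8 of 11 in siLoxL2 against scr (1 higher, 7 lower) beside 58.3% (36.7% higher, 21.7% lower). These last 2 comparisons share the 4 scr arrays. Their median over all probes was 0.18 and 0.16 on the log2 scale, and under a normexp background correction -0.16 in each, so that the share of calls that were higher was 65.1% in the first setting and 39.6% with normexp in siLoxL1 against scr, and 62.9% and 38.4% in siLoxL2 against scr. With quantile normalization those shares were 55% and 52.9%. In siLoxL1 against siLoxL2 the share was 65.5%, and 41.7% with no filter on dim probes.

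**Figure D1:**
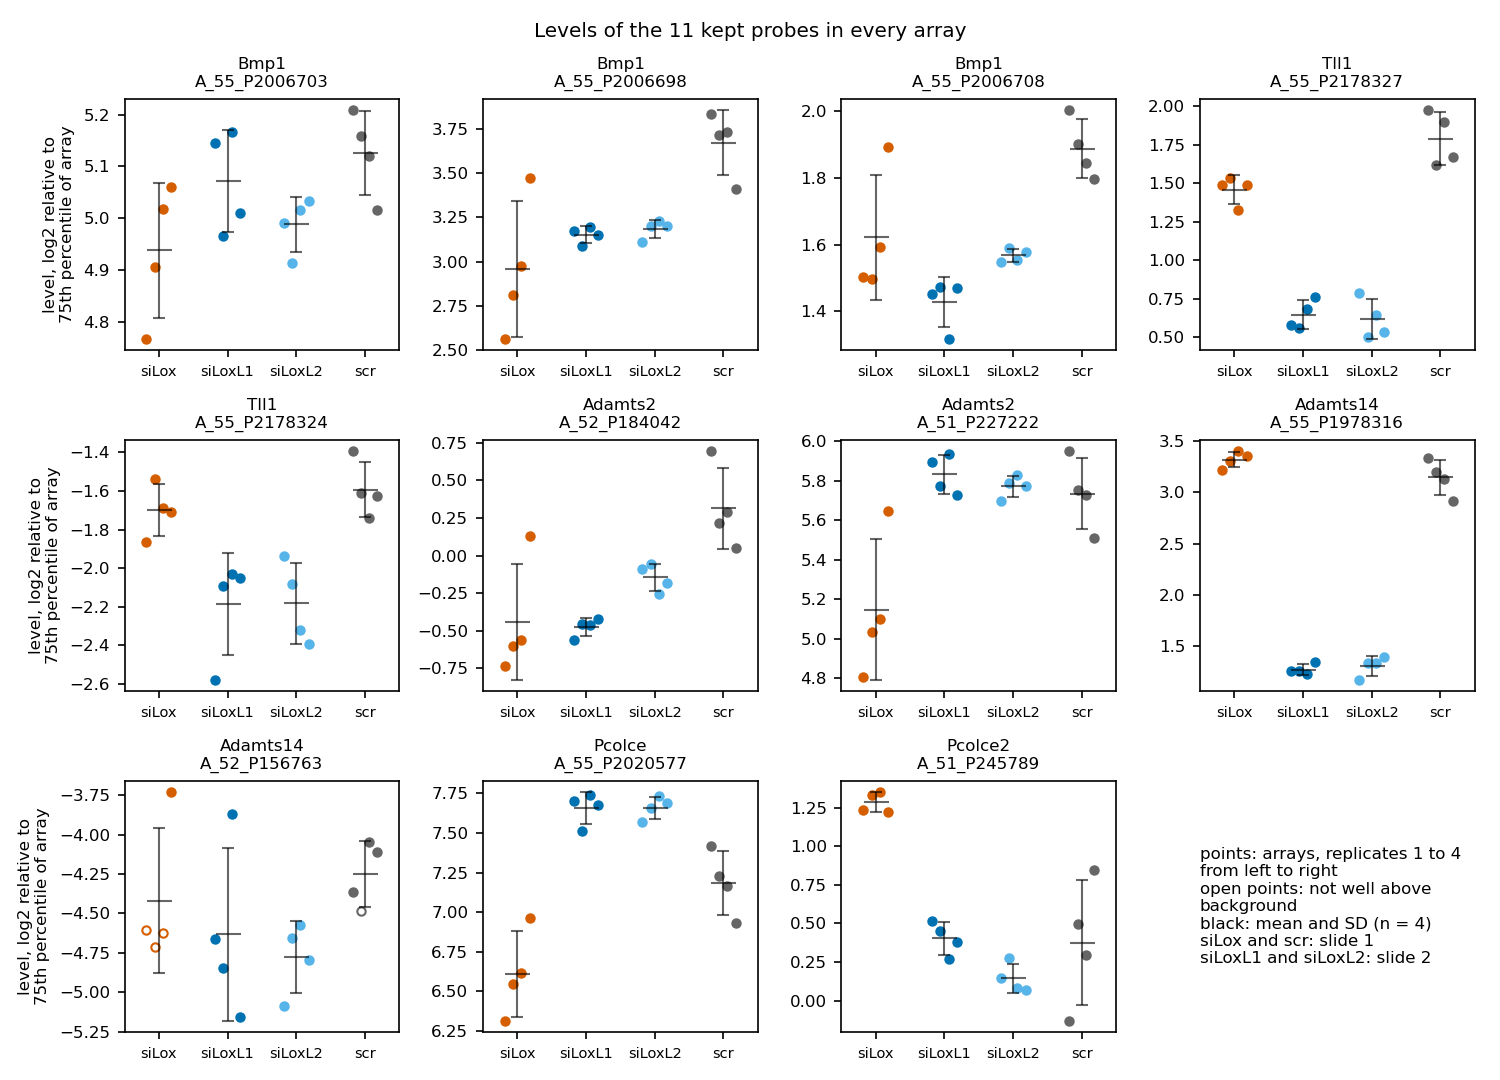
Level of each of the 11 tested probes on every array (vertical axis, log2 relative to the array's 75th percentile; 1 panel per probe, with its own scale), for siLox, siLoxL1, siLoxL2 and scr. Points are arrays, open points were not well above background, and black marks give the mean and SD (n = 4); Pcolce2 is at 1.22 or above on all siLox arrays and at 0.84 or below on all others, and the brighter Adamts14 probe is at 1.39 or below on slide 2 and at 2.92 or above on slide 1.

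Among the enhancers, Pcolce2 read 1.24, 1.33, 1.35 and 1.22 on the siLox arrays, against -0.13, 0.50, 0.29 and 0.84 on the scr arrays. Every siLox value lay above every scr value, and the scr arrays were spread more widely (SD 0.41) than the siLox arrays (SD 0.06). The log2 difference was 0.91 ± 0.19 (SE, limma adjusted p = 0.0201), a 1.88-fold higher signal. Permuting the same 8 values gave an exact two-sided p = 0.0286, the smallest that 4 against 4 samples allow. The call rested on few arrays: with 1 array left out it passed in 4 of 8 fits, failing without siLox replicate 1, 2 or 3 or scr replicate 3, at differences of 0.74 to 1.06 and limma adjusted p of 0.00657 to 0.0599.

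Pcolce, the other enhancer, read 6.31, 6.54, 6.61 and 6.96 in siLox, against 7.42, 7.23, 7.17 and 6.93 in scr. The groups met only at replicate 4 of each, where siLox was at its highest and scr at its lowest. Pcolce fell by 0.58 on the log2 scale (SE 0.16, limma adjusted p = 0.0389), to 67.1% of the scr signal. It passed in 2 of 8 fits with 1 array left out, those without replicate 4 of either group, over a range of -0.70 to -0.48 and limma adjusted p of 0.0231 to 0.0961. It also missed the threshold with quantile normalization (limma adjusted p = 0.0522). In siLox, replicate 4 was also the array with the most Lox signal (2.04). With both replicates 4 left out, the log2 difference was -0.78 for Pcolce and 1.08 for Pcolce2.

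Because the 2 enhancers differed in opposite directions, their difference within each array was compared as well, a measure chosen after the values were seen. Pcolce2 minus Pcolce was -5.08, -5.21, -5.26 and -5.74 in siLox, against -7.55, -6.73, -6.87 and -6.08 in scr. The groups did not overlap, and the siLox mean was higher by 1.48 (exact permutation p = 0.0286, 0.0571 after Benjamini-Hochberg adjustment over 28 such comparisons of probe pairs). A scaling factor per array does not change this value, and it shows unequal change of the 2 probes, not which of them changed.

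On slide 2, Pcolce2 read 0.52, 0.45, 0.27 and 0.38 in siLoxL1, against 0.15, 0.28, 0.08 and 0.07 in siLoxL2. The groups met only at 1 array each, and the difference of 0.26 ± 0.07 did not pass (limma adjusted p = 0.0657, and 0.0158 with a normexp background). Pcolce averaged 7.66 ± 0.10 in siLoxL1 and 7.66 ± 0.07 in siLoxL2 (SD, n = 4 each), with a 95% interval of the log2 difference from -0.15 to 0.14. Set against scr on the other slide, Pcolce was higher by 0.47 ± 0.11 in siLoxL1 (SE, limma adjusted p = 0.00613) and by 0.48 ± 0.10 in siLoxL2 (0.0051). Relative to the median of all probes these values were 0.29 and 0.32, and with quantile normalization they were 0.16 and 0.22 and did not pass (limma adjusted p = 0.236 and 0.102). For Pcolce2, siLoxL1 and siLoxL2 differed from scr by 0.03 and -0.23, neither of which passed (limma adjusted p = 0.909 and 0.320). In order of the group means, Pcolce2 was highest in siLox, which overlapped no other group, then in siLoxL1, scr and siLoxL2, neighbours whose ranges overlapped.

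**Figure D2:**
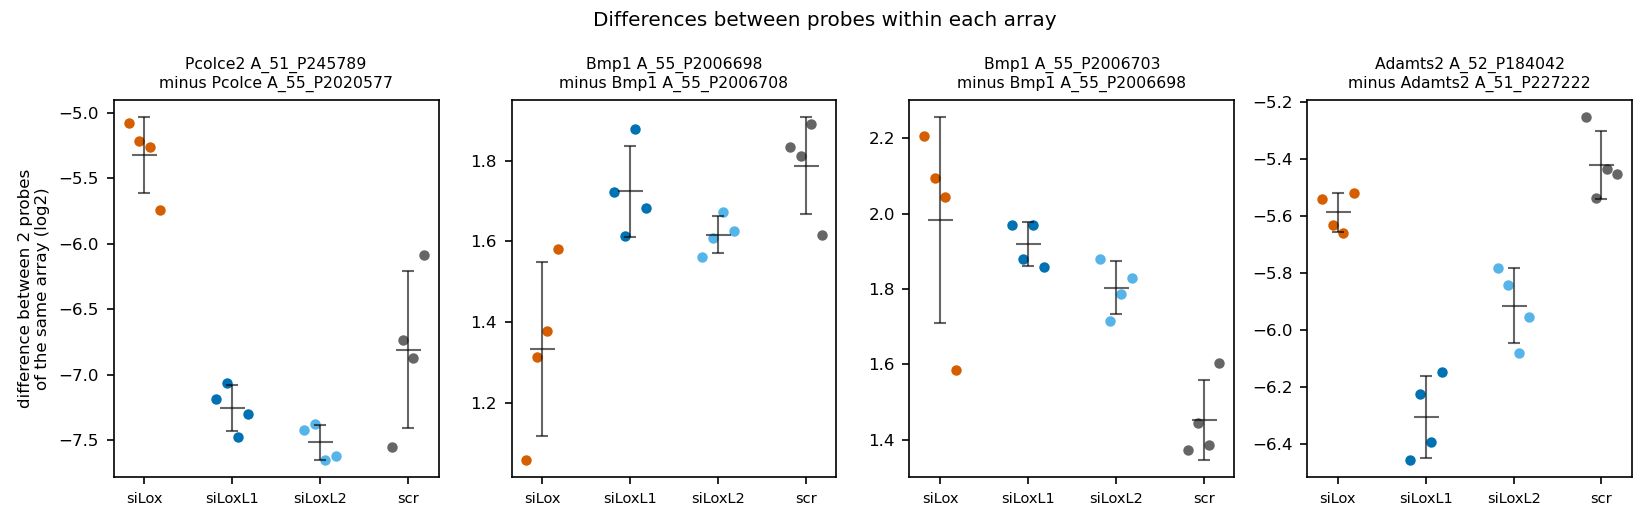
Difference in log2 level between 2 probes of the same array (vertical axis, log2; each panel with its own scale), for siLox, siLoxL1, siLoxL2 and scr. Points are arrays and black marks the mean and SD (n = 4). Pcolce2 minus Pcolce averaged -5.32 in siLox and -6.81 in scr. The Adamts2 difference averaged -6.31 in siLoxL1, -5.92 in siLoxL2 and, on the other slide, -5.42 in scr.

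Of the tolloids, Bmp1, the main C-proteinase of most tissues, was covered by 3 probes that did not behave alike. A_55_P2006703, the probe of the 3 nearest the gene's 3′ end and the brightest, read 4.77, 4.91, 5.02 and 5.06 in siLox, against 5.21, 5.16, 5.12 and 5.02 in scr. Its groups overlapped, and its log2 difference of -0.19 did not pass (limma adjusted p = 0.138, 95% interval -0.38 to 0.01). The files list A_55_P2006698 under predicted transcripts and under a non-coding RefSeq transcript that they also list for A_55_P2006703, but not under the curated coding transcript listed for the other probes. It read 2.56, 2.81, 2.97 and 3.47 in siLox, against 3.84, 3.71, 3.73 and 3.41 in scr, overlapping only at replicate 4 of each.

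That Bmp1 probe fell by 0.72 on the log2 scale in siLox (SE 0.19, limma adjusted p = 0.0386), and passed in 2 of 8 fits with 1 array left out, those without replicate 4 of either group (limma adjusted p 0.0166 to 0.0972). A_55_P2006708, listed under the coding transcript and not under the non-coding one, averaged 1.62 ± 0.19 in siLox and 1.89 ± 0.09 in scr (SD, n = 4 each), a log2 difference of -0.27 that did not pass (limma adjusted p = 0.100, and 0.0477 with a normexp background). Within arrays, A_55_P2006698 minus A_55_P2006708 was 1.06, 1.32, 1.38 and 1.58 in siLox, against 1.83, 1.81, 1.89 and 1.61 in scr. These groups did not overlap, and the siLox mean minus the scr mean was -0.45 (exact permutation p = 0.0286, adjusted 0.0571). In the other Bmp1 pairs siLox and scr overlapped. The mean of A_55_P2006703 minus A_55_P2006698 differed by 0.53 (exact permutation p = 0.0571, adjusted 0.1). That of A_55_P2006703 minus A_55_P2006708 differed by 0.08 (exact permutation p = 0.314, adjusted 0.352). Of all 28 comparisons of probe pairs, 14 were without overlap.

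On slide 2 no Bmp1 probe passed. The nearest was A_55_P2006708, at 1.45, 1.47, 1.32 and 1.47 in siLoxL1 and 1.55, 1.59, 1.55 and 1.58 in siLoxL2, groups that did not overlap (log2 difference -0.14, limma adjusted p = 0.115). Groups without overlap made up 2 of 11 member probes here and 19.0% of all probes, and 2 of 11 beside 28.7% in siLox against scr. Between slides they made up 7 of 11 beside 55.6% in siLoxL1 against scr, and 8 of 11 beside 54.9% in siLoxL2 against scr. Compared with scr across slides, A_55_P2006698 was lower, with log2 differences of -0.52 in siLoxL1 and -0.49 in siLoxL2 (limma adjusted p = 0.00185 and 0.00282), as was A_55_P2006708, with -0.46 and -0.32 (0.000666 and 0.00249). The brightest probe differed by -0.05 and -0.14 and did not pass, with a direction that turned under normexp (0.06 and 0.03) and a call with quantile normalization (-0.31 and -0.33, limma adjusted p = 0.00699 and 0.00258).

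Tll1, a tolloid best known for its part in the septation of the developing mouse heart, was read by 2 probes. A_55_P2178327 (chr8:66493567-66493626, minus strand) gave 1.49, 1.53, 1.32 and 1.49 in siLox, against 1.97, 1.62, 1.89 and 1.67 in scr. The groups did not overlap, and the log2 difference of -0.33 ± 0.10 lay at the threshold (SE, limma adjusted p = 0.0498). It passed in 1 of 8 fits with 1 array left out, that without scr replicate 4 (limma adjusted p 0.0381 to 0.122), and missed with quantile normalization (0.0530).

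The dimmer Tll1 probe, A_55_P2178324 (chr8:66684228-66684287, minus strand), averaged -1.70 ± 0.13 in siLox and -1.59 ± 0.14 in scr (SD, n = 4 each) and did not pass (limma adjusted p = 0.459). Between siLoxL1 and siLoxL2 the brighter probe averaged 0.65 ± 0.09 and 0.62 ± 0.13, with a 95% interval of the log2 difference from -0.15 to 0.21. Across slides Tll1 was lower than in scr by both probes. The brighter one was at 0.58, 0.56, 0.68 and 0.76 in siLoxL1 and 0.79, 0.50, 0.64 and 0.53 in siLoxL2, log2 differences of -1.14 and -1.17 (limma adjusted p = 3.53e-05 and 5.39e-05). The dimmer one differed by -0.59 in each (limma adjusted p = 0.00676 and 0.0038). By the brighter probe, scr stood highest and siLox next, with no overlap, and siLoxL1 and siLoxL2 lay below both and overlapped each other.

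The N-proteinase Adamts2, whose loss causes dermatosparaxis, a fragile skin with uncut procollagen in mice, cattle and people, had 1 of its 2 probes, the dimmer, pass in siLox against scr and in siLoxL1 against siLoxL2, and the brighter in neither. A_51_P227222 ends at the stop codon of an open reading frame, and A_52_P184042 lies upstream of it in the gene. The files list both under the same curated coding transcript, and A_52_P184042 also under another curated transcript. The upstream probe read -0.73, -0.60, -0.56 and 0.13 in siLox, against 0.69, 0.21, 0.29 and 0.05 in scr. Again the groups crossed only at replicate 4 of each. It fell by 0.75 on the log2 scale (SE 0.21, limma adjusted p = 0.0439), to 59.3% of the scr signal, and passed in 2 of 8 fits with 1 array left out, those without replicate 4 of either group (limma adjusted p 0.0178 to 0.107). The probe at the stop codon read 4.81, 5.03, 5.10 and 5.65 in siLox, against 5.95, 5.75, 5.73 and 5.51 in scr. Its log2 difference of -0.59 ± 0.18 did not pass (limma adjusted p = 0.0562), but passed without replicate 4 of either group (0.0184 at the lowest) or with a normexp background (0.0187).

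In siLoxL1 against siLoxL2 the upstream Adamts2 probe was the 1 call. It read -0.56, -0.45, -0.46 and -0.42 in siLoxL1, against -0.09, -0.06, -0.25 and -0.18 in siLoxL2. The groups did not overlap, and the log2 difference was -0.33 ± 0.06 (SE, limma adjusted p = 0.0207), a signal of 79.6% of that in siLoxL2. The call was lost without siLoxL1 replicate 2 or 3 or siLoxL2 replicate 2 or 4, over a range of -0.37 to -0.30 and limma adjusted p of 0.0367 to 0.0573. It was also lost in 1 fit of all 16 arrays (limma adjusted p = 0.356) and with no filter on dim probes (0.0671). Leaving out both replicates 4 lost it too (limma adjusted p = 0.104), as did a block for the replicate number (0.0680). The probe at the stop codon averaged 5.83 ± 0.10 in siLoxL1 and 5.77 ± 0.06 in siLoxL2 (SD, n = 4 each), and its log2 difference of 0.06 did not pass (limma adjusted p = 0.549).

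The upstream probe minus the probe at the stop codon was -6.46, -6.23, -6.39 and -6.15 in siLoxL1, against -5.78, -5.84, -6.08 and -5.95 in siLoxL2. The ranges did not overlap, and the means differed by -0.39 (exact permutation p = 0.0286, adjusted 0.0571). Both groups were also below scr in this difference, with mean differences of -0.89 and -0.49, but scr lay on the other slide. Thus siRNA and slide cannot be told apart there. Set against scr, the upstream probe was lower, with log2 differences of -0.79 in siLoxL1 (limma adjusted p = 0.00118) and -0.46 in siLoxL2 (0.0188, and 0.0522 without siLoxL2 replicate 3). The probe at the stop codon differed by 0.10 and 0.04 and did not pass, with the opposite sign under quantile normalization (-0.20 and -0.22).

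Adamts14, the least studied N-proteinase, had the largest differences among the members, all of them between slides. A_55_P1978316 read 1.25, 1.26, 1.23 and 1.35 in siLoxL1 and 1.17, 1.34, 1.34 and 1.39 in siLoxL2, against 3.33, 3.20, 3.14 and 2.92 in scr. The log2 differences from scr were -1.87 ± 0.09 and -1.84 ± 0.10 (SE, limma adjusted p = 2.62e-06 and 5.52e-06). Relative to the median of all probes they were -2.05 and -1.99. The siLox arrays, on the slide of scr, read 3.22, 3.31, 3.40 and 3.35 and overlapped scr, and their log2 difference of 0.17 did not pass (limma adjusted p = 0.221, 95% interval -0.05 to 0.40). On slide 2, siLoxL1 and siLoxL2 differed by -0.04 (limma adjusted p = 0.717, 95% interval -0.17 to 0.10). The low values were those of both groups of slide 2, where siRNA and slide cannot be told apart.

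The other Adamts14 probe, A_52_P156763 (chr10:60668150-60668209, minus strand), was near background, being well above it on 1 siLox, 4 siLoxL1, 4 siLoxL2 and 3 scr arrays. It averaged -4.42 ± 0.46 in siLox, -4.63 ± 0.55 in siLoxL1, -4.78 ± 0.23 in siLoxL2 and -4.25 ± 0.21 in scr (SD, n = 4 each). It passed only in siLoxL2 against scr (-0.53, limma adjusted p = 0.0140), a call lost in 1 fit of all 16 arrays (0.0919) and without both replicates 4 (0.0739). In siLoxL1 against scr it differed by -0.38 (limma adjusted p = 0.237). There it passed with a normexp background (-0.69, limma adjusted p = 1.34e-05) and without siLoxL1 replicate 3 (0.0133). For Adamts3, which besides procollagen cleaves the precursor of the lymphatic growth factor Vegfc, and for Tll2, no difference is given, since no group was measured above background on all its arrays.

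**Figure D3:**
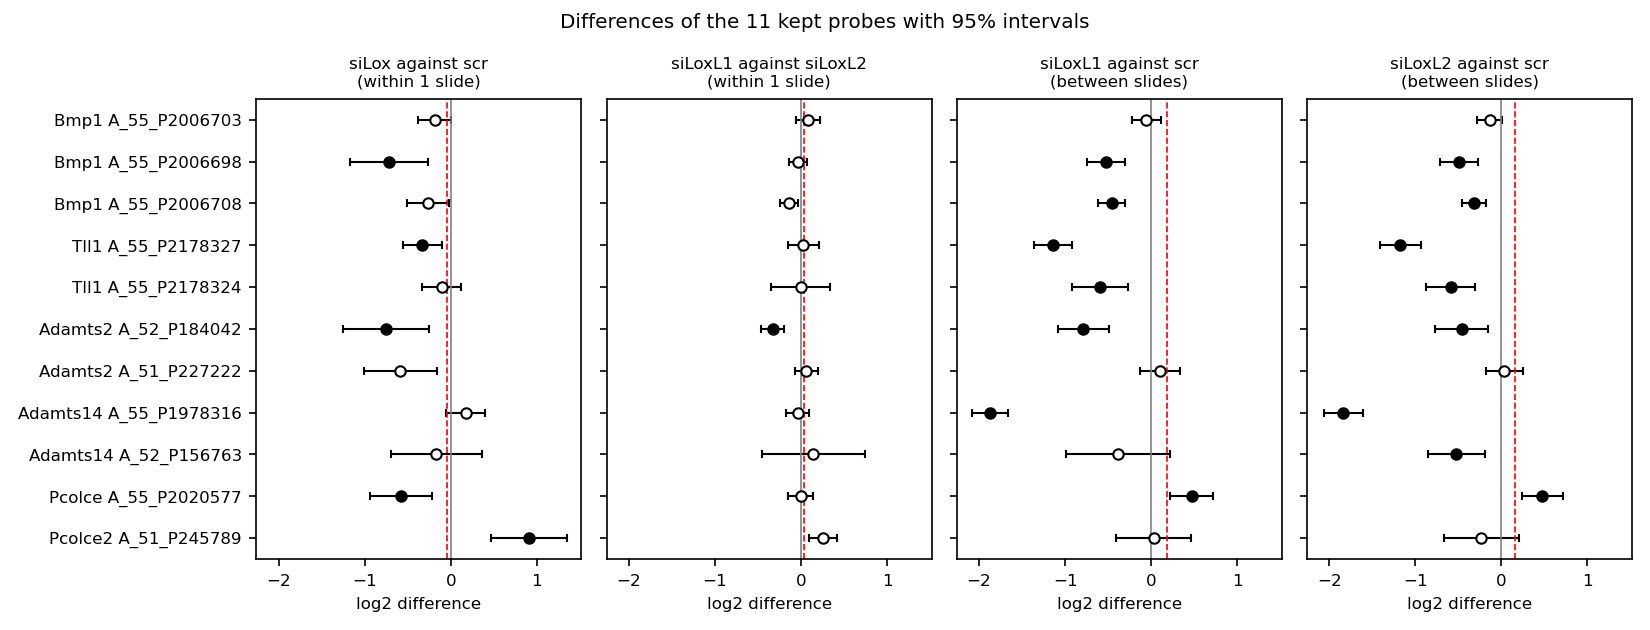
Log2 difference (horizontal axis) of the 11 tested probes in the 4 comparisons, each as the first group minus the second, with 95% intervals from limma. Filled points passed a limma adjusted p of 0.05 and the dashed line marks the median of all tested probes; Pcolce2 (0.91) is the 1 filled point above 0 in siLox against scr, and Adamts14 (-1.87 and -1.84) lies farthest from 0 between slides.

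How the members varied together was described with the mean of each slide removed, over 16 arrays and by the brightest probe of each gene. Adamts2 and Pcolce had the closest patterns (Pearson r = 0.975), and Bmp1 followed both (r = 0.868 with Adamts2 and 0.865 with Pcolce). Pcolce2 ran the other way, at r = -0.833 with Pcolce and -0.816 with Tll1. The points share slides, groups and scaling, and no test was made. Among all genes, the patterns most like that of Pcolce were those of Mboat7 (r = 0.980), a lysophospholipid acyltransferase, Rcn3 (0.977), a calcium-binding protein of the endoplasmic reticulum, and Adamts2 itself. For Adamts2 they were C1qtnf7 (0.985), Zcchc24 (0.981) and Fkbp7 (0.979), the last a prolyl isomerase of the endoplasmic reticulum. Those of Pcolce2 were Wdr59 (0.987), Taf8 (0.983) and Sphk1 (0.982), a sphingosine kinase. For Bmp1 they were Tmem132a (0.926), Galnt16 and Tmub1, for Tll1 Anln (0.933), Dstn and Capza2, and for Adamts14 Nacc1 (0.831), Sfxn3 and Gstt2.

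The substrates of these proteinases and the proteins that activate or bind them were taken from lists of known pathway genes. The list of 10 procollagen genes held the fibrillar ones and Col7a1. In siLox, 1 of the 10 was higher and 3 were lower, beside 9.68% of all probes higher and 11.5% lower. Their median log2 difference was -0.31, beside -0.05 over all probes. Col5a2, Col7a1 and Col1a2 were lower, with log2 differences of -0.80, -0.79 and -0.46 (limma adjusted p = 0.0374, 0.0357 and 0.0351), and Col5a3 rose by 0.56 (0.0155). Of these, Col7a1 encodes the anchoring fibril collagen of basement membranes, and the others encode chains of the fibrils of the stroma. The siLox and scr ranges of Col7a1 overlapped, and those of Col5a2, Col1a2 and Col5a3 did not. Col1a1 differed by -0.14 and did not pass (limma adjusted p = 0.254).

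Of 13 other substrates of Bmp1 and the tolloids, 7 were lower and 0 higher in siLox (median -0.49), beside the same 9.68% and 11.5% of all probes and counting Lox, the siRNA target itself. Hspg2, the proteoglycan perlecan, fell by 0.60 on the log2 scale (limma adjusted p = 0.0354), and Chrd, an antagonist of bone morphogenetic proteins, fell by 0.69 (0.0168). Loxl1 fell by 0.49 (limma adjusted p = 0.0395) and Bgn, the proteoglycan biglycan, fell by 0.28 (0.0400). The siLox and scr ranges overlapped for Hspg2 and Loxl1, but not for Chrd and Bgn. Mstn, another of the calls, was well above background on 0 siLox and 1 scr arrays and was tested because slide 2 measured it, so that no fold is given and 6 of 12 were lower without it.

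Among 12 tested genes of activating convertases and binding partners, 2 rose and 3 fell in siLox (median -0.22), again beside 9.68% and 11.5% of all probes. Furin, the convertase that removes the prodomain of Bmp1, differed by -0.04 and did not pass (limma adjusted p = 0.661), whereas its relative Pcsk5 fell by 0.71 (0.0142). Adam10, a membrane sheddase, fell by 0.81 (limma adjusted p = 0.00851) and Thbs1, a matricellular glycoprotein, fell by 0.48 (0.0403). Vegfc, the substrate of Adamts3, rose by 0.71 (limma adjusted p = 0.0374), and Ccbe1, the cofactor of that cleavage, by 0.36 (0.0305). The siLox and scr ranges overlapped for Thbs1, but not for Pcsk5, Adam10, Vegfc and Ccbe1.

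**Figure D4:**
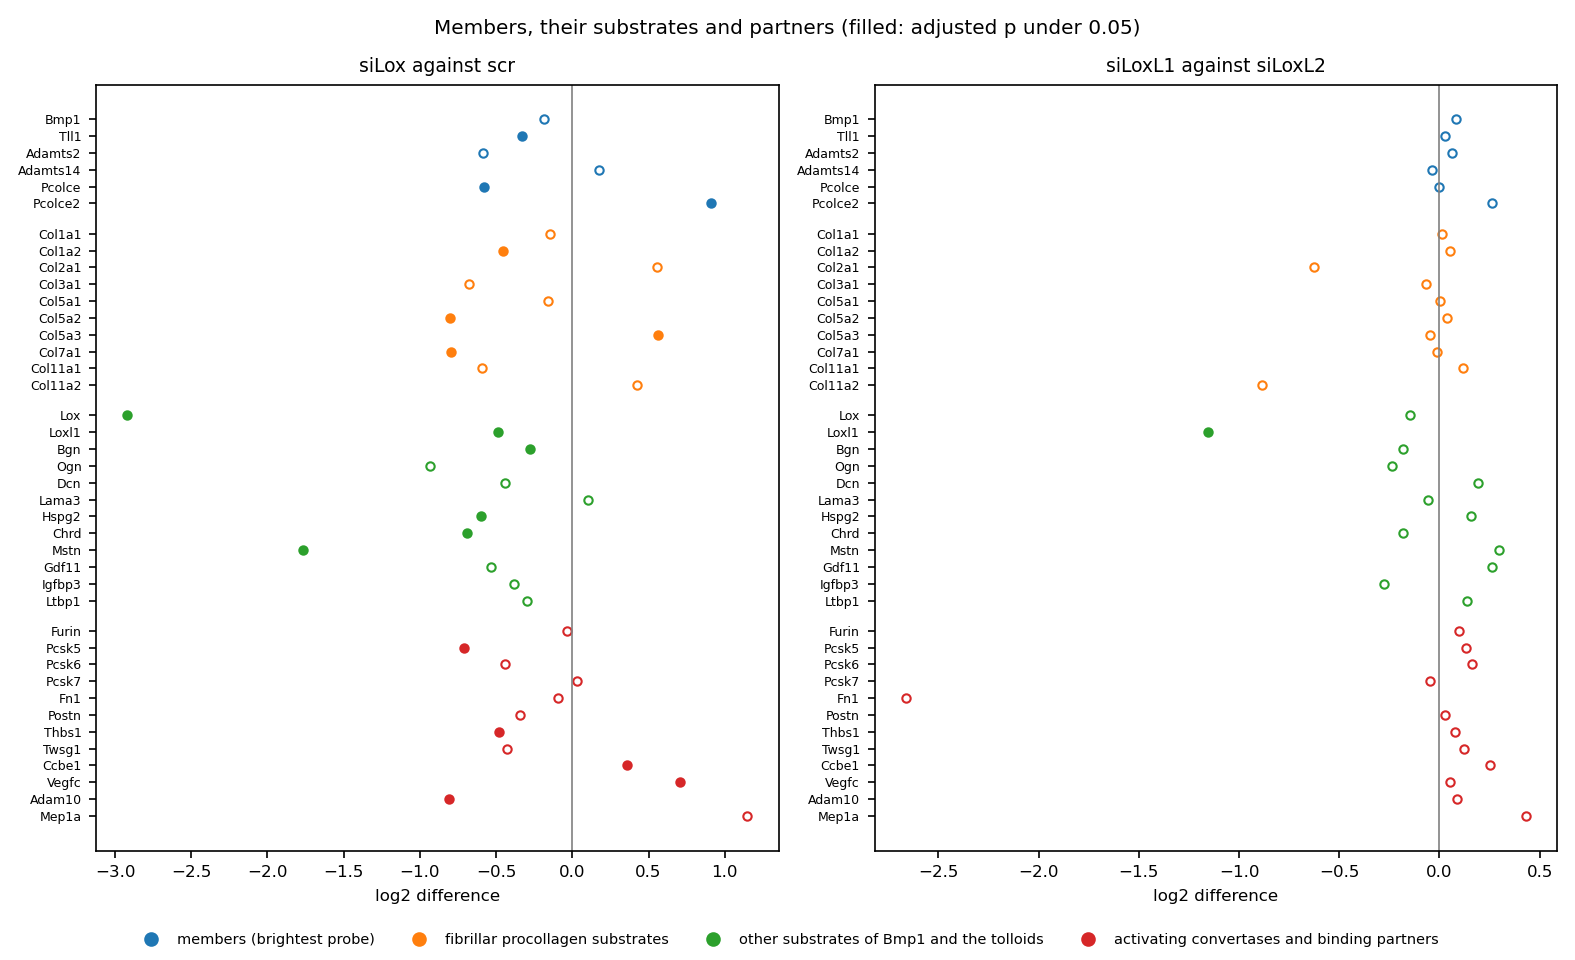
Log2 difference (horizontal axis) of the tested genes, 1 list gene left out, in siLox against scr (left) and siLoxL1 against siLoxL2 (right), for the members by their brightest probe and the 3 lists of substrates and partners. Filled points passed a limma adjusted p of 0.05; on the right the 1 filled point is Loxl1 (-1.15), the siRNA target, and Fn1, the point farthest left, did not pass: it read -2.60 on siLoxL1 replicate 4, against 8.25 to 8.33 on the other siLoxL1 arrays and 8.21 to 8.25 on the siLoxL2 arrays.

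In siLoxL1 against siLoxL2, 0 of the 10 procollagen genes, 1 of the 13 other substrates (Loxl1, the siRNA target) and 0 of the 12 convertases and partners passed, with list medians of 0.00, -0.07 and 0.09 beside 0.03 over all probes, of which 4.41% were higher and 2.32% lower. In siLoxL1 against scr the procollagen genes counted 0 higher and 7 lower of 10, the other substrates 4 higher and 6 lower of 13, and the convertases and partners 5 higher and 3 lower of 12, beside 38.5% of all probes higher and 20.7% lower. The counts in siLoxL2 against scr were 0 and 7, 3 and 3, and 6 and 5, beside 36.7% and 21.7%. Col2a1 is 1 of the 7 procollagen genes in both comparisons but was well above background on 1 siLoxL1, 2 siLoxL2 and 2 scr arrays, so that no fold is given and 6 of 9 were lower without it. Col5a3, which encodes a type V collagen chain, was lower, with log2 differences of -2.17 in siLoxL1 and -2.12 in siLoxL2 (limma adjusted p = 1.33e-06 and 2.36e-06). Postn, the matrix protein periostin, which binds Bmp1, had log2 differences of -2.92 and -2.95 (limma adjusted p = 7.98e-07 and 1.39e-06), and Ccbe1 of 2.49 and 2.24 (6.54e-07 and 1.3e-06).

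Markers of lung cell types were read on the same arrays, and their counts in siLox stand beside 9.68% of all probes higher and 11.5% lower. Of 11 fibroblast markers, all 11 were measurable, and 4 were lower in siLox (Thy1, Pdgfrb, S100a4 and Col1a2), with a mean level of 5.23 to 5.73 on the siLox arrays and 5.76 to 6.08 on the scr arrays. Of 8 leukocyte and macrophage markers, 1 was higher in siLox, Marco, at 1.08, and the list mean was 0.12 to 0.34 in siLox and -0.52 to 0.22 in scr. Ptprc, the pan-leukocyte gene, averaged -3.38 in siLox and -3.76 in scr. Mesothelial markers counted 2 lower of 4, with list means of 0.49 to 0.59 in siLox and 0.79 to 1.02 in scr, and smooth muscle and pericyte markers 1 higher and 3 lower of 6, with list means of 1.28 to 1.64 in siLox and 1.64 to 2.19 in scr. Endothelial markers had 0 calls among 5, with list means of -3.34 to -3.19 in siLox and -3.21 to -2.98 in scr, and epithelial markers 0 among 3. The endothelial count and means include Tek, which was well above background on 0 siLox and 0 scr arrays. Without Tek, 0 of 4 endothelial markers passed.

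Of 7 epithelial markers 3 were measurable, and Epcam, Cdh1, Sftpc and Cldn18 were not. The 3 had list means of -3.04 to -2.77 in siLoxL1 and -3.24 to -2.82 in siLoxL2, against -0.66 to -0.29 in scr, and Krt8 averaged -3.28 and -3.40, against 0.96 in scr. Marker counts in siLoxL1 against scr stand beside 38.5% of all probes higher and 20.7% lower. Those in siLoxL2 against scr stand beside 36.7% and 21.7%. In siLoxL1 against scr and in siLoxL2 against scr alike, 2 of the 3 epithelial markers, Krt8 and Krt18, were lower. Krt18 had log2 differences of -3.29 and -3.41. Of the fibroblast markers, 7 of 11 were higher and 2 lower in each, with Pdgfra at 1.32 and 1.28 (limma adjusted p = 3.94e-05 and 4.80e-05). Of the mesothelial markers, 1 of 4 was higher and 3 lower in each, with Wt1 at -2.38 and -2.64 (limma adjusted p = 3.11e-07 and 5.45e-07). Smooth muscle and pericyte markers counted 1 higher and 3 lower of 6 in each. Endothelial markers counted 2 higher and 3 lower of 5 in siLoxL1 and 2 higher and 2 lower in siLoxL2. Of these, Tek was well above background on 3 siLoxL1 and 0 scr arrays and was tested because siLoxL2 measured it. Without Tek, siLoxL1 counted 1 higher and 3 lower of 4. Leukocyte markers counted 2 higher and 2 lower of 8 in siLoxL1 and 2 higher and 0 lower in siLoxL2. In siLoxL1 against siLoxL2, 1 marker over all these lists passed, beside 6.73% of all probes: the endothelial gene Tek, which was lower. The part of these cell types in the results was not tested, and in these bulk RNA samples fewer cells of a type and less RNA per cell cannot be told apart. The comparisons of siLoxL1 and siLoxL2 with scr also lie between slides, so that siRNA and slide cannot be told apart in them.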

How the data were processed

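RNA of 16 primary mouse lung fibroblast samples (siLox, siLoxL1, siLoxL2 and scr, 4 each) was labelled with Cy3 and hybridised to one-colour Agilent arrays. Groups and replicate numbers come from the sample labels, and slides and scan sessions from the file headers. The deposited scanner values are intensity values, background subtracted and detrended with Agilent Feature Extraction 10.7.3.1, per the file headers. The value table deposited by the authors holds log2 values: sorted columns differed by at most 0.000965, as after quantile normalization, their medians were 4.84 on every array, and they correlated with the scanner values at r = 0.997 to 0.999. The steps behind it are not given in the sources used here. Flags for background, saturation and outliers (score of 0 or 1) were used as deposited.

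Levels are log2 of the processed signal minus the array's 75th percentile over non-control probes (8.67 to 9.03 on slide 1, 9.74 to 9.90 on slide 2). Outlier spots were left out, and 0 spots were saturated. A probe was kept if the scanner's flag for signal well above background was set on each of the 4 arrays in some group (32430, or 58.2% of 55681, after 46 were dropped for an array without a usable spot). Within groups, Pearson's r between arrays was 0.986 to 0.998. The median SD within groups was 0.18 on slide 1 and 0.11 on slide 2, so each comparison was fitted on its own 8 arrays with limma 3.58.1 in R 4.3.3 (lmFit, eBayes), with Benjamini-Hochberg adjustment over all kept probes and a threshold of 0.05. Probe pairs were compared with exact two-sided permutation tests. The code was tested on simulated data.

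Gene names are those of the scanner files. Of the non-control probes, 28331 (50.9%) had an entry in RefSeq (GRCm38.p6), and the others kept their scanner name. No member probe had a different symbol there, but the Adamts3 probe A_55_P2108820 is listed under no RefSeq transcript, so its name was not checked. The brightest probe stood for a gene where 1 value was needed. Named list genes are up to 4 per list and comparison with the largest differences among those that passed, with further calls and non-calls chosen after their values were seen, and the 3 genes most like each member by Pearson's r. Members and lists were chosen with earlier results of these data known. Alternatives were quantile normalization, a normexp background (offset 50), the value table, no filter on dim probes, 1 fit of 16 arrays, 1 probe per gene, a replicate block, leaving out both replicates 4, and leaving out each array. Of the listed genes, 1 counts in its list but is not reported here by name.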

Additional observations from a re-analysis of the deposited data

Results flagged for a closer look

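Of 44 groups of 4 arrays checked over the 11 tested probes, 3 held 1 array far from the other three, where chance gives about 1 in 20. The Bmp1 probe A_55_P2006708 read 1.32 on siLoxL1 replicate 3, below the other siLoxL1 arrays. The Tll1 probe A_55_P2178324 read -2.58 on siLoxL1 replicate 1, also below the others of its group. The Adamts14 probe A_52_P156763 read -3.73 on siLox replicate 4, the 1 siLox array on which it was well above background. The Adamts3 probe A_55_P2108820, which was not tested, was well above background on siLox replicate 2 alone, at -4.12, and on 0 of 4 scr arrays.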

How the results depend on the processing

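Of the differences of each gene's brightest probe recomputed under the alternatives (the other 5 probes are not in this tally), 323 kept direction and side of the threshold, 31 no longer passed, 13 newly passed and 17 changed sign, and the cause was not tested unless named. For siLox against scr, 5 member probes passed, and 3 did with quantile normalization, 3 with the value table, 1 with no filter (Pcolce2), 8 in 1 fit of 16 arrays, 3 with 1 probe per gene (fewer probes tested) and 0 with a replicate block. More than 5 member probes passed with normexp, and also with both replicates 4 left out. Over all probes 6857 passed, 8044 with normexp, 9749 without both replicates 4, 2622 with no filter and 12846 in 1 fit of 16 arrays. In limma with the replicate block 0 passed, with 9670 at an unadjusted p under 0.05. Leaving out 1 array gave 1756 to 9937 probes and 0 to 6 member probes. For siLoxL1 against siLoxL2, 1 member probe passed, and 2 did with normexp and 0 with no filter, 1 fit of 16 arrays, 1 probe per gene, the replicate block or both replicates 4 left out. Over all probes 2182 passed, 2752 with normexp, 412 with no filter, 1033 in 1 fit of 16 arrays, 515 with the replicate block and 162 without both replicates 4. Leaving out 1 array gave 567 to 1319 probes and 0 to 1 member probes. In siLoxL1 against scr, 19191 probes passed, 25599 with normexp and 33811 with no filter. With 1 array left out 17094 to 20223 passed, with 7 to 8 member probes, and 3 member probes did with 1 probe per gene. In siLoxL2 against scr, 18922 passed, 25401 with normexp and 32791 with no filter. With 1 array left out 16631 to 19917 passed, with 7 to 9 member probes, and 3 member probes did with 1 probe per gene.

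Among the brightest probes, the sign changes were of differences that did not pass. In siLoxL1 against siLoxL2 they were Adamts14 (0.026 with normexp), Tll1 (-0.037 without both replicates 4, -0.010 to 0.086 with 1 array left out) and Pcolce (-0.034 to 0.045 with 1 array left out), and among the other probes Tll1 A_55_P2178324 (0.025 with quantile normalization) and Adamts14 A_52_P156763 (-0.11 to 0.32 with 1 array left out) also turned. In siLoxL1 against scr they were Adamts2 (-0.20 with quantile normalization, -0.21 from the value table), Bmp1 (0.061 with normexp) and Pcolce2 (-0.14 to 0.18 with 1 array left out). In siLoxL2 against scr they were Adamts2 (-0.22 in both normalizations, -0.040 without both replicates 4, -0.039 to 0.11 with 1 array left out) and Bmp1 (0.031 with normexp). Replicates with the same number did not deviate together in siLox and scr (r = -0.15 to -0.0036, 0 of 4 closest to their own number) and only weakly in siLoxL1 and siLoxL2 (r = 0.039 to 0.20, 3 of 4), so the numbers were not taken to pair samples. With the replicate block, which is also the slide column, the Adamts2 probe of siLoxL1 against siLoxL2 had a limma adjusted p of 0.068. The signal over background limits Tll2, Adamts3 and the dimmer Adamts14 probe.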
